A study of Homo sapiens with 24 samples.

Results

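The response of SW620 ALDHneg cells to Nifuroxazide (NIF) was described across all genes, from the 6 libraries that the labels assign to it out of 24 in the study. SW620 is a colon cancer cell line, and ALDHneg cells are those with low aldehyde dehydrogenase activity in the ALDEFLUOR assay, which the labels call non-cancer stem cells. The 3 NIF libraries came from cells kept for 30 h with NIF, a nitrofuran antibiotic, and the 3 control libraries from cells kept for 30 h with the vehicle DMSO. The study compared NIF with DMSO in ALDHneg cells and in ALDHbr cells, which have high aldehyde dehydrogenase activity and are held to be enriched in cancer stem cells, of SW620 and of the breast cancer cell line SUM159. The labels name no genetic change in any of these groups, and the replicates came from independent experiments per the study's methods. Between replicates of SW620 ALDHneg cells, a chi-square of the difference in counts was averaged over genes, where counting noise alone gives about 1. It was 1.97 for NIF replicates 1 and 3 and 3.70 to 5.28 for the other pairs. The p-values below rest on this spread, and whether it is that of independent experiments was not tested. The labels give the concentration of the NIF stock and not the final concentration. Cells were treated first and sorted afterwards, so that a change inside the cells and a change in which cells fell into the ALDHneg gate cannot be told apart. In bulk RNA, fewer cells of a type and less RNA per cell cannot be told apart either.

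The files hold raw read counts of total RNA for 28307 genes. The NIF libraries held 38032476 to 40375463 counts (median 40172167) and the DMSO libraries 34498172 to 40360301 (median 37470397), and levels are given below as TMM-scaled CPM, which is not corrected for gene length. In these libraries the 10 most abundant genes took 6.08% to 6.28% of the counts under NIF and 4.80% to 4.93% under DMSO. Of 12 colon epithelial markers 12 were detected well enough to be tested, among them EPCAM, CDH1, KRT8, KRT18, KRT19 and KRT20, and CDX1, CDX2 and GPA33 had mean levels below 2 CPM in both conditions. Of 10 mesenchymal markers 4 were tested, with a mean log2 CPM over the markers of -0.93 to -0.49 under NIF and -1.01 to -0.66 under DMSO. PTPRC, CD3E and MS4A1, which define leukocytes, and VWF, CDH5, KDR and TEK, which define endothelium, were too low to be tested, although LYZ (1209 CPM and 1466 CPM) and CD68 (29.0 CPM and 11.3 CPM), which leukocytes share with other cells, were present under NIF and DMSO. One library of the shared fit, the ALDHbr DMSO replicate 2, stood apart, in that leaving it out raised the number of genes called in ALDHneg cells from 6286 to 7134. ALDH1A1, a main source of ALDEFLUOR activity, stood at 901 ± 19.3 CPM under DMSO in ALDHneg cells and at 1314 ± 51.3 CPM in ALDHbr cells (SD, n = 3 each), present in both sorted populations.

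As background, NRF2 is the transcription factor that KEAP1 releases when electrophiles or oxidants modify it, and it turns on genes for glutathione and thioredoxin metabolism, quinone and aldehyde reduction and iron storage. The integrated stress response is the pathway in which kinases of the translation factor eIF2 raise ATF4, which turns on genes for amino acid import, amino acid synthesis and tRNA charging. Entry into mitosis depends on a late wave of transcription of cyclin B, mitotic kinases, kinesins and kinetochore proteins, which is repressed in arrested cells by the DREAM complex bound at cell cycle genes homology regions. These programmes are described below one by one, with the values of every library for the genes at their ends.

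NIF changed the RNA of a large share of the genes in SW620 ALDHneg cells. Of 13953 genes tested, 3114 (22.3%) rose and 3172 (22.7%) fell under NIF at an adjusted p of 0.05 in the edgeR quasi-likelihood test with Benjamini-Hochberg adjustment. The changes were mostly small, with a median log2 fold change of 0.51 among the genes that rose and of -0.39 among those that fell, and of -0.01 over all genes tested. Beyond a doubling or a halving the response leaned upwards. With a log2 fold change of 1 or more 602 genes (4.31%) rose, and with -1 or less 339 (2.43%) fell. With 2 or more the counts were 145 and 57, and with 3 or more 48 and 13. In 6234 of the 6286 genes called, every NIF library lay on the same side of every DMSO library. Among all 13953 genes tested, called or not, the libraries were apart in this way with NIF higher in 4389 and with NIF lower in 4471. With library-size scaling in place of TMM, 2578 genes rose and 3957 fell, which lowers the share of higher calls from 49.5% to 39.4% and moves the median of all genes to -0.07.

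Of the called genes that averaged 1 or more in log2 CPM, the one with the highest fold change was CYP4F11 (Entrez Gene 57834), a cytochrome P450 that hydroxylates fatty acids. It stood at 46.1, 47.4 and 46.7 CPM under NIF and 1.59, 1.41 and 1.36 CPM under DMSO, a log2 fold change of 5.00 (standard error 0.12, edgeR adjusted p = 2.77e-12). Its values under NIF lay within 2 CPM of each other and more than 40 CPM above every DMSO library. AHNAK2 (Entrez Gene 113146), which encodes a very large scaffold protein, stood at 280.2, 264 and 271 CPM under NIF and 17.7, 18.1 and 21.0 CPM under DMSO, a log2 fold change of 3.84 (standard error 0.22, edgeR adjusted p = 8.54e-09). KRT17 (Entrez Gene 3872), a keratin of basal and stressed epithelia, stood at 41.5, 40.6 and 40.9 CPM under NIF and 3.00, 2.45 and 3.09 CPM under DMSO, a log2 fold change of 3.85 (standard error 0.14, edgeR adjusted p = 7.8e-11). All 3 NIF libraries were above all 3 DMSO libraries in each of these genes, which the choice of genes at the ends required. IL6R (Entrez Gene 3570), the receptor subunit that binds interleukin 6, stood at 28.1, 26.9 and 28.9 CPM under NIF and 2.12, 1.98 and 2.18 CPM under DMSO, a log2 fold change of 3.74 (standard error 0.11, edgeR adjusted p = 1.11e-11). NLRC5 (Entrez Gene 84166), a transactivator of MHC class I genes, stood at 12.0, 12.9 and 12.9 CPM under NIF and 0.928, 0.965 and 1.27 CPM under DMSO, a log2 fold change of 3.58 (standard error 0.13, edgeR adjusted p = 9.91e-11). The libraries did not overlap in either gene, as the same choice required. The other genes among the 12 highest were the pseudogene NMRAL2P (4.25 on the log2 scale), the aldo-keto reductase AKR1C1 (3.67), GPSM1, a modulator of G protein signalling (3.39), CHAC1, which degrades glutathione (3.31), CYP4F3, which inactivates leukotriene B4 (3.30), the glycine transporter SLC6A9 (3.27) and FAM25A (3.21). AKR1C1, FAM25A and the CYP4F genes have near-identical relatives, and how reads shared between them were counted is not given in the sources used here.

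At the other end, LGR5 (Entrez Gene 8549), the R-spondin receptor that marks intestinal stem cells, stood at 1.66, 1.12 and 1.32 CPM under NIF and 12.7, 12.3 and 13.1 CPM under DMSO, a log2 fold change of -3.22 (standard error 0.12, edgeR adjusted p = 7.2e-11). CLDN2 (Entrez Gene 9075), a claudin that forms cation pores in tight junctions, was the most abundant of the genes named here by counts, at 24.0, 24.4 and 24.6 CPM under NIF and 127, 122 and 119 CPM under DMSO, a log2 fold change of -2.34 (standard error 0.05, edgeR adjusted p = 1.38e-12). In both the highest NIF library lay below the lowest DMSO library, again required by the choice of these genes. The others named were GABRP, a subunit of GABA receptors (-3.46), the retinoid-induced gene RARRES1 (-2.76), LRRN4 (-2.40), the cytidine deaminase APOBEC3C (-2.32), CYP1B1 (-2.31), the TEAD cofactor VGLL1 (-2.18), SOSTDC1, a secreted antagonist of BMP and Wnt signals (-2.14), the nuclear receptor NR5A2 (-2.14) and TLR4, the receptor for lipopolysaccharide (-2.05).

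**Figure D1:**
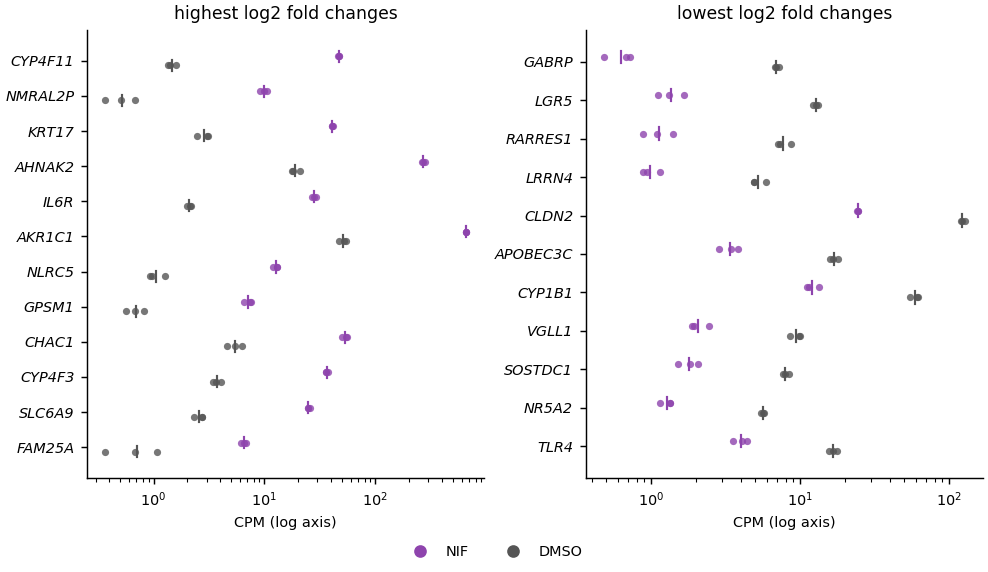
CPM on a log axis (x axis) in each NIF library (purple points) and DMSO library (grey points) of SW620 ALDHneg cells, for the genes named at both ends of the log2 fold changes (y axis), with a bar at the mean of 3. No gene has a NIF library among its DMSO libraries, which the choice of these genes required, and GABRP and LRRN4 lie near 1 CPM under NIF.

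The lists of pathway members below are described by the number of members that passed the test and by the median log2 fold change of the members tested, to be read against the 22.3% of genes that rose, the 22.7% that fell and the median of -0.01 over all genes tested. Of the lists with more than 10 members tested, the integrated stress response (1.38) and the NRF2 targets (1.37) had the highest medians, and cholesterol synthesis (-0.82) and mitosis (-0.58) the lowest.

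**Figure D2:**
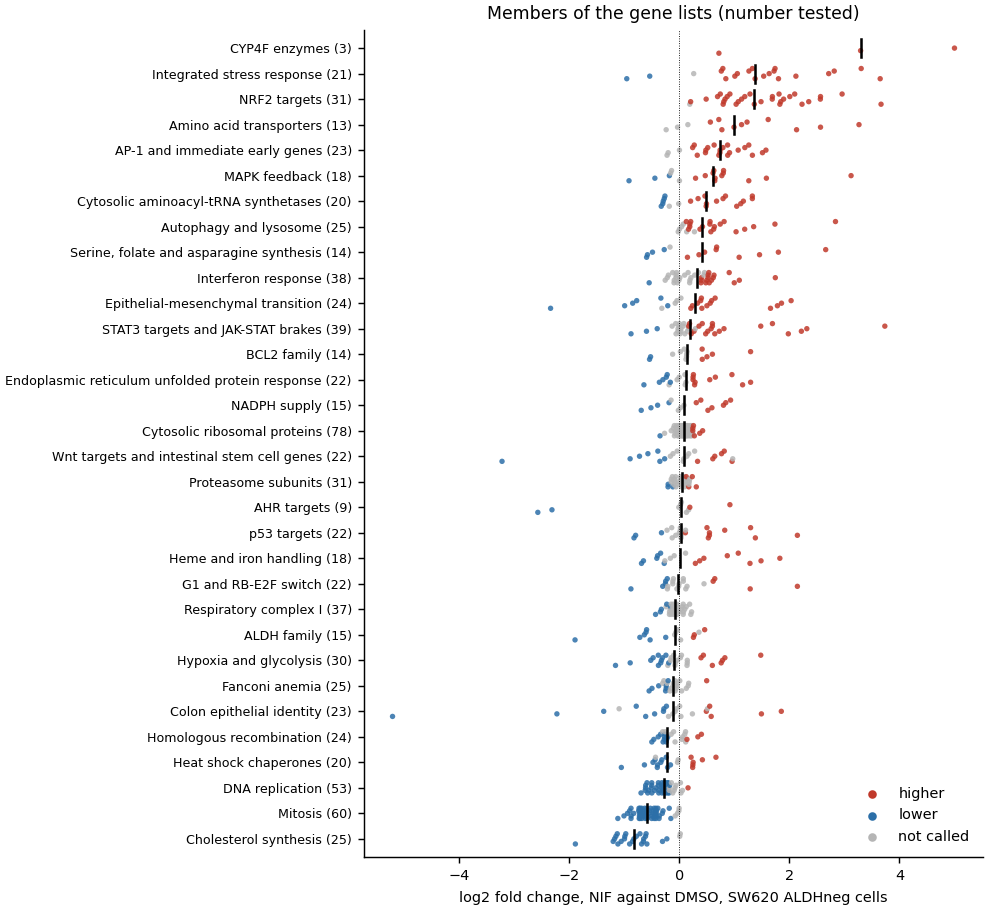
Log2 fold change of NIF against DMSO in SW620 ALDHneg cells (x axis) for each tested member of 32 gene lists (y axis, number tested in parentheses), ordered by the median, which is the black bar. Members that rose are red, members that fell blue and the others grey. The NRF2 targets and the integrated stress response lie to the right with medians of 1.37 and 1.38, and cholesterol synthesis and mitosis to the left with -0.82 and -0.58.

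Of 31 NRF2 targets 30 rose and 0 fell, and PRDX1 did not pass the test (log2 fold change 0.19). The list had a median of 1.37 and its members ranged up to 3.67. The aldo-keto reductases, which reduce aldehydes and ketones with NADPH, were at the top. AKR1C1 (Entrez Gene 1645) stood at 650.1, 652 and 655 CPM under NIF and 46.9, 52.4 and 54.8 CPM under DMSO, a log2 fold change of 3.67 (standard error 0.08, edgeR adjusted p = 1.36e-12). AKR1C2 stood at 166, 161 and 163 CPM under NIF and 18.0, 22.1 and 22.9 CPM under DMSO, a log2 fold change of 2.96 (standard error 0.09, edgeR adjusted p = 1.17e-11). Neither had a DMSO library within reach of a NIF library. SLC7A11 (Entrez Gene 23657), the cystine importer that supplies glutathione synthesis, stood at 553, 482 and 550.1 CPM under NIF and 76.2, 91.3 and 99.99 CPM under DMSO, a log2 fold change of 2.57 (standard error 0.17, edgeR adjusted p = 2.87e-08). TXNRD1, which reduces thioredoxin, stood at 2305, 2181 and 2318 CPM under NIF and 669, 731 and 708 CPM under DMSO, a log2 fold change of 1.69 (standard error 0.06, edgeR adjusted p = 4.1e-11). HMOX1, which opens the heme ring, stood at 86.1, 84.3 and 86.4 CPM under NIF and 21.8, 24.1 and 26.5 CPM under DMSO, a log2 fold change of 1.83 (standard error 0.07, edgeR adjusted p = 1.99e-10). The DMSO libraries of these 3 genes lay well below their NIF libraries. Both subunits of glutamate-cysteine ligase rose, the modifier GCLM by 1.69 and the catalytic GCLC by 1.36 on the log2 scale, as did the quinone reductase NQO1 (0.92), sulfiredoxin SRXN1 (2.01) and the carbonyl reductase CBR3 (2.56). The exporters ABCC2 (2.35) and ABCC3 (0.81) rose as well. NFE2L2, which encodes NRF2 itself, stood at 139, 137 and 136 CPM under NIF and 120.4, 120.1 and 120.0 CPM under DMSO, a log2 fold change of 0.19 (standard error 0.05, edgeR adjusted p = 0.00325), a small change beside that of its targets.

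The antioxidant response element to which NRF2 binds was searched as TGACNNNGC on both strands, over the 250 bases before and 50 bases after each gene's start in the RefSeq promoters of GRCh38.p14. It was found in 7 of the 22 NRF2 targets with a promoter given (31.8%) in 3702 of 27305 promoters (13.6%) and in 15.3% of the promoters of genes tested. The promoters below belong to the targets with the highest log2 fold changes among those with a match, with genes of a single chromosome left out of the choice. They show where the element lies before genes that rose under NIF, written 5′ to 3′ on the strand of the gene with the element in capitals. LUCAT1 is a long non-coding RNA that rose by 2.10 on the log2 scale.
LUCAT1, chr5:91314353-91314652, minus strand: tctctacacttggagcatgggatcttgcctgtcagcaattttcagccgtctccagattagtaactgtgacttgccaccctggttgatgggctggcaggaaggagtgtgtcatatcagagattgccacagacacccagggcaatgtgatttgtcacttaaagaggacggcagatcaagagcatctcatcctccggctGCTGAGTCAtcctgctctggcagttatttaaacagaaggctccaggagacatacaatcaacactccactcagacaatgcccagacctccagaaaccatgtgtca
GCLM, chr1:93909381-93909680, minus strand: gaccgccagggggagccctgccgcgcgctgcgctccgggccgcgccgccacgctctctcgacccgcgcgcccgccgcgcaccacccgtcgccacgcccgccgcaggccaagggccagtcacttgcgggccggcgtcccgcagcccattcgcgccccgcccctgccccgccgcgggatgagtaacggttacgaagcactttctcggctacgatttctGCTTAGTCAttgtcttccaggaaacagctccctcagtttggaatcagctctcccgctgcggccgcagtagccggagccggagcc
TXNRD1, chr12:104215529-104215828, plus strand: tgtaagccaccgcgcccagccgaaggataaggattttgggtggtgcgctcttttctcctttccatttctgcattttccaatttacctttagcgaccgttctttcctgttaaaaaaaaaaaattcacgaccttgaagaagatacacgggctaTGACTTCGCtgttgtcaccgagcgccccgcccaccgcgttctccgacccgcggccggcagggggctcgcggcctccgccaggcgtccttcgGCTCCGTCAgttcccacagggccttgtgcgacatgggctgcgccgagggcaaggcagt
None of these matches overlapped a match of the other motifs searched. The element began 54 bases before the start in LUCAT1 and 34 in GCLM, and in TXNRD1 the first of 2 matches began 99 bases before it. A match of letters is no proof of binding.

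Iron storage stood out by abundance. Both ferritin chains rose, the heavy chain FTH1 (Entrez Gene 2495) at 14812, 15563 and 15542 CPM under NIF and 5560.1, 5504 and 5319 CPM under DMSO, a log2 fold change of 1.49 (standard error 0.08, edgeR adjusted p = 5.66e-09), and the light chain FTL (Entrez Gene 2512) at 5759, 5908 and 5790.5 CPM under NIF and 2438, 2406 and 2315 CPM under DMSO, a log2 fold change of 1.29 (standard error 0.09, edgeR adjusted p = 4.95e-08). No other gene that changed at least 2-fold had higher counts than FTH1, which has many pseudogenes whose share of its reads is not known. Over the 18 genes of heme and iron handling tested, 8 rose and 6 fell, with a median of 0.01 that turned negative under 6 of 20 alternatives. Among those that fell were the iron importer SLC11A2 (-0.68), CPOX, an enzyme of heme synthesis (-0.65), and the iron exporter SLC40A1 (-0.41).

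Of the 15 genes of NADPH supply 7 rose and 4 fell (median 0.09). ME1, the cytosolic malic enzyme, stood at 134, 129.9 and 133 CPM under NIF and 70.7, 75.7 and 74.0 CPM under DMSO, a log2 fold change of 0.85 (standard error 0.05, edgeR adjusted p = 1.24e-08). PGD, a dehydrogenase of the pentose phosphate pathway, rose by 0.80 on the log2 scale. The mitochondrial enzymes IDH2 (-0.69) and NNT (-0.51) fell, and so did RPIA of the non-oxidative branch of that pathway (-0.39). All 3 CYP4F enzymes tested rose, with CYP4F12 at 0.72.

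The targets of the aryl hydrocarbon receptor did not move together. Of 9 tested 2 rose, NQO1 and NFE2L2, which are also linked to NRF2, and 2 fell. CYP1A1 (Entrez Gene 1543), the cytochrome P450 that the receptor induces most strongly, stood at 0.643, 0.762 and 0.583 CPM under NIF and 3.27, 4.38 and 4.22 CPM under DMSO, a log2 fold change of -2.57 (standard error 0.18, edgeR adjusted p = 6.09e-08). CYP1B1 (Entrez Gene 1545), its relative, stood at 13.4, 11.4 and 11.1 CPM under NIF and 54.9, 61.0 and 62.2 CPM under DMSO, a log2 fold change of -2.31 (standard error 0.11, edgeR adjusted p = 1.28e-09). The DMSO libraries were above the NIF libraries in both. The core letters of the xenobiotic response element, GCGTG, are so short that 36.3% of all promoters and 50.2% of those of genes tested hold them on one strand or the other, against 6 of the 7 members with a promoter given (85.7%).

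The aldehyde dehydrogenases were lower more often than higher. Of 15 tested 7 fell and 3 rose (46.7% and 20.0%), with a median of -0.08. ALDH1A3 (Entrez Gene 220) stood at 49.9, 45.6 and 47.6 CPM under NIF and 177, 182 and 173 CPM under DMSO, a log2 fold change of -1.89 (standard error 0.06, edgeR adjusted p = 1.36e-11). ALDH1A1 (Entrez Gene 216) stood at 553, 534 and 559.5 CPM under NIF and 883, 921.50 and 897 CPM under DMSO, a log2 fold change of -0.71 (standard error 0.05, edgeR adjusted p = 3.64e-08). Both make retinoic acid and give ALDEFLUOR signal, so that the sort itself bears on their level, and their part in the gate was not tested. In ALDHbr cells, sorted for high activity, the 2 genes fell as well, with log2 fold changes of -1.47 and -0.46. ALDH7A1, which protects from lipid aldehydes and hyperosmotic stress, fell (-0.63), and ALDH3B1 (0.46), ALDH16A1 (0.28) and ALDH2 (0.26) rose.

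The integrated stress response rose with few exceptions. Of 21 members tested 18 rose and 2 fell, with a median of 1.38. CHAC1 (Entrez Gene 79094), a target of ATF4 that cleaves glutathione, stood at 50.4, 55.8 and 54.3 CPM under NIF and 4.56, 5.48 and 6.23 CPM under DMSO, a log2 fold change of 3.31 (standard error 0.11, edgeR adjusted p = 4.1e-11). ADM2, a peptide hormone of the calcitonin family, stood at 25.8, 26.4 and 26.2 CPM under NIF and 3.17, 3.50 and 4.50 CPM under DMSO, a log2 fold change of 2.82 (standard error 0.11, edgeR adjusted p = 1.03e-10). No NIF library was as low as any DMSO library in either gene. The pseudokinase TRIB3 rose by 2.12, the cystathionine lyase CTH by 2.72, the transcription factor DDIT3 (CHOP) by 1.74, SESN2, a brake on mTORC1, by 1.72, PPP1R15A, which brings the phosphatase back to eIF2, by 1.63 and the cytokine GDF15 by 1.38 on the log2 scale, and ATF4 itself by 0.85. FGF21 had 4 to 16 counts per NIF library and 0 to 2 per DMSO library, too few for a fold change to be read. The members that fell were TXNIP, an inhibitor of thioredoxin and glucose uptake (-0.95), and the transcription factor ATF5 (-0.53).

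The C/EBP-ATF response element, to which ATF4 binds with a C/EBP partner, was searched as TGATGNAA on both strands. It was found in 3 of the 19 members with a promoter given (15.8%) in 1003 of 27305 promoters (3.67%) and in 1.81% of the promoters of genes tested. The promoters below are those 3, and show where the element lies in these windows, written as above with the match in capitals.
FGF21, chr19:48755274-48755573, plus strand: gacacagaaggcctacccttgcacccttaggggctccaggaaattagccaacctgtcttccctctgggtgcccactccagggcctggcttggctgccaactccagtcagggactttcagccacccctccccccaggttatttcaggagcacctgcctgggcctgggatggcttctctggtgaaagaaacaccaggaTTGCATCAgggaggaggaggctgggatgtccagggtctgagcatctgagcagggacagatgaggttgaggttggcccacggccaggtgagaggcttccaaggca
CHAC1, chr15:40953221-40953520, plus strand: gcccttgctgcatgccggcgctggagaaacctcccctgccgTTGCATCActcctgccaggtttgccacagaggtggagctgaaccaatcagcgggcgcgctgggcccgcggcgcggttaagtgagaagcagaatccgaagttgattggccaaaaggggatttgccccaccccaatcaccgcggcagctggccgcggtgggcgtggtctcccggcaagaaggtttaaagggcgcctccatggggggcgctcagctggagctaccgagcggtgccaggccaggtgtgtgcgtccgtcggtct
ATF3, chr1:212565157-212565456, plus strand: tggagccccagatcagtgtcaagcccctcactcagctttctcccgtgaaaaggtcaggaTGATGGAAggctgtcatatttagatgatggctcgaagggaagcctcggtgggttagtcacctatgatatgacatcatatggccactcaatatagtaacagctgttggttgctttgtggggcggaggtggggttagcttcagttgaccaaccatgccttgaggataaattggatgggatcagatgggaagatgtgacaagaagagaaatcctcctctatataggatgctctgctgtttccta
The match began 54 bases before the start in FGF21, 209 in CHAC1 and 191 in ATF3, and overlapped no match of another motif. It is a description of these windows and says nothing of the members without it.

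The genes that supply amino acids mostly rose. Of 14 genes of serine, folate and asparagine synthesis 9 rose and 4 fell (median 0.41). ASNS, asparagine synthetase, stood at 6.27, 5.62 and 5.25 CPM under NIF and 0.781, 1.02 and 0.906 CPM under DMSO, a log2 fold change of 2.66 (standard error 0.19, edgeR adjusted p = 5.9e-08). PHGDH, the first enzyme of serine synthesis, stood at 108, 112 and 104 CPM under NIF and 33.1, 30.7 and 29.1 CPM under DMSO, a log2 fold change of 1.80 (standard error 0.09, edgeR adjusted p = 1.98e-09). The libraries did not overlap. PSAT1, the next enzyme, rose by 1.46 on the log2 scale. The cytosolic folate enzymes SHMT1 (-0.58) and MTHFD1 (-0.48) and ALDH18A1 of proline synthesis (-0.59) fell. Of 13 amino acid transporters 10 rose and 0 fell (median 1.00), or 1 fell without the ALDHbr DMSO replicate 2. The glycine transporter SLC6A9 stood at 24.4, 24.8 and 25.5 CPM under NIF and 2.32, 2.71 and 2.75 CPM under DMSO, and SLC1A4, which carries serine and alanine, at 57.9, 55.4 and 56.2 CPM under NIF and 12.4, 13.7 and 12.5 CPM under DMSO. SLC7A5, the large neutral amino acid exchanger, stood at 1351, 1364 and 1336 CPM under NIF and 616, 616 and 615 CPM under DMSO, a log2 fold change of 1.13 (standard error 0.06, edgeR adjusted p = 1.53e-09). Of 20 cytosolic aminoacyl-tRNA synthetases 13 rose and 5 fell (median 0.48), with AARS1 and SARS1 at the top (1.33 and 1.33), WARS1 next (1.17) and VARS1 (-0.33), KARS1 (-0.30) and FARSB (-0.29) at the bottom.

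The other branches of proteostasis were mixed. In the unfolded protein response of the endoplasmic reticulum 10 of 22 genes rose and 6 fell (median 0.12), or 3 fell without the ALDHneg NIF replicate 1 or the ALDHneg DMSO replicate 1. With the 6 ALDHneg libraries fitted alone 13 rose and 7 fell. The sensor ERN1 (IRE1) rose by 1.30, the co-chaperone DNAJB9 by 1.15 and the transcription factor XBP1 by 0.96 on the log2 scale. The lumenal chaperone HSPA5 (BiP) had a log2 fold change of -0.00 and did not pass the test, and the chaperones CALR (-0.64) and PDIA6 (-0.36) fell. Of 20 heat shock chaperones 11 fell and 6 rose (median -0.22). HSPB1 stood at 80.7, 84.1 and 75.9 CPM under NIF and 177, 149.8 and 172 CPM under DMSO, a log2 fold change of -1.05 (standard error 0.11, edgeR adjusted p = 3.33e-06), and HSPE1, the mitochondrial co-chaperonin, fell as well (-0.63), whereas DNAJB4 (0.67) and HSPA1B (0.42) rose. HSPA1B and HSPA1A are near-identical copies whose reads cannot be parted here. Of 25 genes of autophagy and the lysosome 19 rose and 0 fell (median 0.42). CTSL, a lysosomal protease, stood at 73.8, 76.1 and 75.1 CPM under NIF and 10.9, 10.3 and 10.3 CPM under DMSO, a log2 fold change of 2.84 (standard error 0.09, edgeR adjusted p = 3.04e-11). SQSTM1, the p62 receptor that carries cargo into autophagosomes and binds KEAP1, stood at 1763, 1799.8 and 1751 CPM under NIF and 524, 521 and 546 CPM under DMSO, a log2 fold change of 1.74 (standard error 0.06, edgeR adjusted p = 3.04e-11). In both the libraries were far apart.

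Mitotic genes fell almost as a group. Of 60 tested 56 fell and 0 rose, with a median of -0.58 and a lowest value of -1.11. KIF20A (Entrez Gene 10112), a kinesin needed for cytokinesis, stood at 41.3, 43.7 and 44.7 CPM under NIF and 95.6, 95.3 and 89.7 CPM under DMSO, a log2 fold change of -1.11 (standard error 0.06, edgeR adjusted p = 6.96e-09). DLGAP5 (Entrez Gene 9787), which stabilises spindle microtubules, stood at 37.6, 36.8 and 40.9 CPM under NIF and 78.2, 80.7 and 72.1 CPM under DMSO, a log2 fold change of -1.003 (standard error 0.06, edgeR adjusted p = 1.49e-08). CENPE, the kinetochore kinesin, stood at 43.0, 40.5 and 46.3 CPM under NIF and 80.8, 85.8 and 82.4 CPM under DMSO, a log2 fold change of -0.94 (standard error 0.12, edgeR adjusted p = 1.56e-05). In these 3 genes every NIF library lay below every DMSO library, by a change close to a halving. AURKA (-0.90), CCNB1 (-0.83), PLK1 (-0.71), MKI67 (-0.71), TOP2A (-0.52) and FOXM1 (-0.49) fell by smaller amounts, and CDK1 the least of those that passed (-0.15). CKAP2L (-0.07), UBE2S (-0.03), CDC25B (-0.01) and UBE2C (-0.00) did not pass the test. Across the alternatives 54 to 56 members fell and 0 rose.

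The cell cycle genes homology region was searched as TTTGAA on both strands. It was found in 37 of the 52 mitotic genes with a promoter given (71.2%), in 4212 of 27305 promoters (15.4%) and in 9.76% of the promoters of genes tested. The promoters below are those of the mitotic genes with the strongest decrease among those with a match, with the same chromosome left out of the choice. They show where the element lies around the start, written as above with each match in capitals.
DLGAP5, chr14:55191536-55191835, minus strand: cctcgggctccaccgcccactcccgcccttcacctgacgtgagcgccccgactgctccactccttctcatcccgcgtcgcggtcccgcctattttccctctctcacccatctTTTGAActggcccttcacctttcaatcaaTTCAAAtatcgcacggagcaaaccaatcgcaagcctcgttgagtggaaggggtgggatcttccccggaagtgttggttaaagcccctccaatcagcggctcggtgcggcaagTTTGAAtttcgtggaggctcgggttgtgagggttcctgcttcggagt
HMMR, chr5:163460382-163460681, plus strand: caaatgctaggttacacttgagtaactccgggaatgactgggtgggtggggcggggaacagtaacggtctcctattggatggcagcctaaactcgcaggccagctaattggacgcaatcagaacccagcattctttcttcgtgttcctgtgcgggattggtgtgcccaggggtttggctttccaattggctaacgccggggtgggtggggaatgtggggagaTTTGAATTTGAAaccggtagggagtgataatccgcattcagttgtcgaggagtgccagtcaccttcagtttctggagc
GTSE1, chr22:46296620-46296919, plus strand: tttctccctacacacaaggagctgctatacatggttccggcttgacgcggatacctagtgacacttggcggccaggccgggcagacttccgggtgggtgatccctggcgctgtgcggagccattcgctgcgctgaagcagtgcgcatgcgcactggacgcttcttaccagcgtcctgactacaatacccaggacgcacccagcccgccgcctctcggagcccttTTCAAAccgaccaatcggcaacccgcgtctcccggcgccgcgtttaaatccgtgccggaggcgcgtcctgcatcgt
In HMMR 2 matches lie side by side, the first of them 28 bases before the start, in GTSE1 the match began 26 bases before it, and DLGAP5 had 3 matches, the last at 3 bases after it. HMMR binds hyaluronan and spindle microtubules and fell by 0.87, and GTSE1, a microtubule binding protein of G2, by 0.87 on the log2 scale. No match overlapped one of another motif.

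DNA replication genes fell by less. Of 53 tested 42 fell and 1 rose (median -0.27). TYMS, which makes thymidylate, stood at 141, 140.4 and 142 CPM under NIF and 239.8, 232 and 213 CPM under DMSO, a log2 fold change of -0.69 (standard error 0.07, edgeR adjusted p = 2.73e-06), and the DNA ligase LIG1 fell as well (-0.61). CDC6, which loads the replicative helicase, was the one that rose (0.16), a call lost under 2 of 20 alternatives, among them leaving out the ALDHneg NIF replicate 1. The genes of the G1 phase and the RB-E2F switch were divided, with 4 of 22 higher and 5 lower, or 3 lower without the ALDHneg NIF replicate 2 or the ALDHneg DMSO replicate 3. With the 6 ALDHneg libraries fitted alone 6 were higher and 10 lower. CDKN1A (Entrez Gene 1026), the p21 inhibitor of cyclin-dependent kinases, stood at 120.4, 127 and 119 CPM under NIF and 25.6, 26.3 and 30.9 CPM under DMSO, a log2 fold change of 2.15 (standard error 0.08, edgeR adjusted p = 1.06e-10). CDKN2B, the p15 inhibitor, stood at 34.2, 35.3 and 34.6 CPM under NIF and 13.3, 14.0 and 15.4 CPM under DMSO, a log2 fold change of 1.29 (standard error 0.07, edgeR adjusted p = 5.2e-09). Both had every NIF library above every DMSO library. CCND1 (Entrez Gene 595), cyclin D1, stood at 323, 319.5 and 315 CPM under NIF and 209, 202 and 200.2 CPM under DMSO, a log2 fold change of 0.65 (standard error 0.05, edgeR adjusted p = 6.05e-08), whereas CDKN2C (p18) fell (-0.88). Of 22 p53 targets 9 rose and 3 fell (median 0.03, negative with library-size scaling). PLK3 (1.38) and PMAIP1 (NOXA), which binds MCL1 and promotes apoptosis (1.30), rose with CDKN1A, whereas BTG2 (-0.82) and SESN1 (-0.79) fell. In the BCL2 family 5 of 14 rose, among them the protective BCL2L1 (0.60) and the promoting BBC3 (PUMA, 0.50), and 2 fell, BID (-0.54) and BMF (-0.52).

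In the Fanconi anemia pathway, which repairs DNA interstrand crosslinks, the share of genes that fell was near that of all genes, and few rose. Of 25 genes tested 7 fell (28.0%) and 1 rose (4.00%), with a median of -0.11. Over all genes tested 22.7% fell and 22.3% rose, with a median of -0.01. The number that fell was 4 without the ALDHneg NIF replicate 3 or the ALDHneg DMSO replicate 3, and 11 with library-size scaling or with the 6 ALDHneg libraries fitted alone. FANCI (Entrez Gene 55215), which forms the clamp with FANCD2, stood at 194, 192 and 204 CPM under NIF and 260.4, 257 and 246 CPM under DMSO, a log2 fold change of -0.37 (standard error 0.05, edgeR adjusted p = 5.78e-05). FANCD2 (Entrez Gene 2177) stood at 37.8, 34.8 and 37.7 CPM under NIF and 44.4, 42.1 and 40.3 CPM under DMSO, a log2 fold change of -0.20 (standard error 0.07, edgeR adjusted p = 0.0381). The FANCD2 call was lost under 7 of 20 alternatives, among them each of the 6 that leave out 1 of the ALDHneg libraries (edgeR adjusted p from 0.0543 to 0.172). CENPX, a histone fold partner of FANCM, fell most (-0.55), FANCM fell by 0.49, and the nuclease FAN1 rose (0.50). FANCA, FANCC, FANCE, FANCG, PALB2 and BRIP1 did not pass the test, with log2 fold changes between -0.22 and 0.01. Of 24 genes of homologous recombination 11 fell and 3 rose (median -0.22), with BARD1 (-0.50), RAD51AP1 (-0.46) and the Holliday junction resolvase GEN1 (-0.38) lowest and the nuclease subunit MUS81 (0.40) and RBBP8 (CtIP, 0.34) highest.

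STAT3 (Entrez Gene 6774), the transcription factor that the study examines as a target of NIF, stood at 95.8, 91.5 and 94.5 CPM under NIF and 103, 103 and 102 CPM under DMSO, a log2 fold change of -0.13 (standard error 0.07, edgeR adjusted p = 0.138), which did not pass the test. With the 6 ALDHneg libraries fitted alone the log2 fold change was -0.12 and passed (edgeR adjusted p = 0.00785). Of 39 genes of the STAT3 targets and JAK-STAT brakes 20 rose and 3 fell (51.3% and 7.69%), with a median of 0.19. The brakes of the pathway were among the highest. SOCS3, which blocks JAK kinases at the interleukin 6 receptor, stood at 6.59, 6.61 and 6.29 CPM under NIF and 1.37, 1.25 and 1.27 CPM under DMSO, a log2 fold change of 2.32 (standard error 0.13, edgeR adjusted p = 8.52e-09). SOCS2, a brake on growth hormone signalling, stood at 2.57, 2.44 and 2.81 CPM under NIF and 0.513, 0.756 and 0.397 CPM under DMSO, a log2 fold change of 2.22 (standard error 0.21, edgeR adjusted p = 1.14e-06). Their levels were low, but the NIF libraries lay above the DMSO libraries. SOCS1 rose by 1.98 and the kinase PIM1 by 1.69 on the log2 scale, the anti-apoptotic MCL1 by 0.42, and VEGFA, also a hypoxia gene, by 1.48. The 3 that fell were BIRC5 (-0.87), which is also a mitotic gene, the repressor BCL6 (-0.59) and PIAS3, an inhibitor of STAT3 (-0.40).

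Of 38 interferon response genes 16 rose and 1 fell (median 0.32), or 3 fell without the ALDHbr DMSO replicate 2. The exonuclease ISG20 stood at 13.9, 14.8 and 14.5 CPM under NIF and 4.03, 4.17 and 4.70 CPM under DMSO, a log2 fold change of 1.75 (standard error 0.09, edgeR adjusted p = 2.33e-09). SAMD9L and RSAD2 followed at low counts (1.09 and 1.00), and the transcription factor IRF1 fell (-0.55). The changes of IFIT1, ISG15, OAS1 and MX1 passed at log2 fold changes between 0.40 and 0.62. Of 23 AP-1 and immediate early genes 20 rose and 0 fell (median 0.74), or 1 fell without the ALDHbr DMSO replicate 2 or the ALDHneg DMSO replicate 1. KLF4 stood at 51.0, 52.4 and 50.8 CPM under NIF and 16.1, 16.6 and 19.1 CPM under DMSO, a log2 fold change of 1.58 (standard error 0.08, edgeR adjusted p = 2.81e-09). DUSP1, a phosphatase of MAP kinases, stood at 14.7, 13.6 and 14.8 CPM under NIF and 4.83, 4.36 and 5.95 CPM under DMSO, a log2 fold change of 1.51 (standard error 0.11, edgeR adjusted p = 5.45e-08). Neither overlapped between conditions. JUN (1.07) and FOSL1 (1.26) rose, and FOS had a log2 fold change of -0.22 that did not pass. Of 18 genes of MAPK feedback 12 rose and 3 fell (median 0.62), or 1 fell without the ALDHneg DMSO replicate 2. With the 6 ALDHneg libraries fitted alone 4 fell. DUSP5, which dephosphorylates ERK in the nucleus, stood at 103, 107 and 99.3 CPM under NIF and 10.3, 12.4 and 13.0 CPM under DMSO, a log2 fold change of 3.12 (standard error 0.08, edgeR adjusted p = 4.81e-12), whereas SPRY1, an inhibitor of receptor tyrosine kinase signals, stood at 9.41, 9.30 and 9.66 CPM under NIF and 18.4, 16.8 and 18.2 CPM under DMSO, a log2 fold change of -0.91 (standard error 0.08, edgeR adjusted p = 5.55e-07).

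Cholesterol synthesis fell nearly throughout. Of 25 genes tested 23 fell and 0 rose, with a median of -0.82. ACAT2, which condenses acetyl-CoA at the entry of the pathway, stood at 34.6, 32.5 and 34.2 CPM under NIF and 79.6, 76.1 and 77.0 CPM under DMSO, a log2 fold change of -1.20 (standard error 0.08, edgeR adjusted p = 3.78e-08). DHCR7, which makes cholesterol in the last step, stood at 106, 108 and 105 CPM under NIF and 246, 237 and 237 CPM under DMSO, a log2 fold change of -1.17 (standard error 0.07, edgeR adjusted p = 7.15e-09). All NIF libraries were below all DMSO libraries. SQLE, the squalene epoxidase, fell by 1.12, the sterol sensor partner INSIG1 by 1.11 and the transcription factor SREBF2 by 0.68 on the log2 scale, and PMVK (0.01) did not pass the test. Across the alternatives 22 or 23 members fell and 0 rose.

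The hypoxia and glycolysis genes went both ways, with 7 of 30 higher and 11 lower (median -0.09). VEGFA stood at 285, 282 and 285 CPM under NIF and 95.5, 102 and 108 CPM under DMSO, a log2 fold change of 1.48 (standard error 0.05, edgeR adjusted p = 9.77e-11), and the peptide ADM rose too (0.83), whereas CA9, the carbonic anhydrase at the cell surface, stood at 73.1, 78.1 and 71.9 CPM under NIF and 156, 162 and 179 CPM under DMSO, a log2 fold change of -1.16 (standard error 0.10, edgeR adjusted p = 4.64e-07), and the glycolytic enzymes ALDOC (-0.89) and PGK1 (-0.52) fell. Of 22 Wnt targets and intestinal stem cell genes 6 rose and 7 fell (median 0.08). Beside LGR5, PROM1 (CD133) fell (-0.89) and ASCL2, a transcription factor of intestinal stem cells, fell on 83 to 107 counts per NIF library (-0.72), whereas EPHB2, a guidance receptor of crypt cells, stood at 25.9, 26.3 and 27.5 CPM under NIF and 15.6, 15.6 and 15.6 CPM under DMSO, a log2 fold change of 0.77 (standard error 0.06, edgeR adjusted p = 2.33e-07). Of 23 genes of colon epithelial identity 5 rose and 9 fell (median -0.11). The adhesion protein CEACAM5, carcinoembryonic antigen, stood at 89.3, 84.6 and 89.8 CPM under NIF and 25.7, 23.6 and 23.7 CPM under DMSO, a log2 fold change of 1.86 (standard error 0.07, edgeR adjusted p = 7.62e-11). GPA33, a surface antigen of intestinal epithelium, had 8 to 19 counts per NIF library and 59 to 77 per DMSO library (-2.22), CDX2 fell on 7 to 12 against 22 to 26 counts (-1.37), and FABP1 had 0 counts in every NIF library and 3 to 7 per DMSO library.

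Of 24 genes of the epithelial-mesenchymal transition 14 rose and 6 fell (median 0.29). LAMB3, a laminin chain of epithelial basement membranes, stood at 515, 527 and 497 CPM under NIF and 139, 140.3 and 145 CPM under DMSO, a log2 fold change of 1.86 (standard error 0.06, edgeR adjusted p = 1.36e-11). Its NIF libraries lay above its DMSO libraries. The mesenchymal genes were low. FN1 fell on 26 to 38 counts per NIF library (-0.99), the transcription factor ZEB1 rose from 0.291 CPM to 0.915 CPM (1.66 on the log2 scale), and VIM was at 0.221 CPM under DMSO and 0.18 CPM under NIF. CLDN1 fell (-0.84) together with CLDN2.

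The ALDHbr cells of SW620 gave a response close to that of ALDHneg cells. In ALDHbr cells 2987 genes (21.4%) rose and 3051 (21.9%) fell. Of the genes that rose in ALDHneg cells 2524 also rose in ALDHbr cells, which is 81.1% of the ALDHneg and 84.5% of the ALDHbr calls, and of those that fell 2496 did, 78.7% and 81.8%, and 2 genes were called in opposite directions. The 2 populations have separate DMSO libraries. Across 13953 genes the log2 fold changes had a Pearson correlation of 0.87 and a Spearman correlation of 0.84, a description over genes that share libraries and depth. Of 625 genes past a log2 fold change of 1 in both populations and in the same direction, 394 (63.0%) were farther from 0 in ALDHneg cells.

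**Figure D3:**
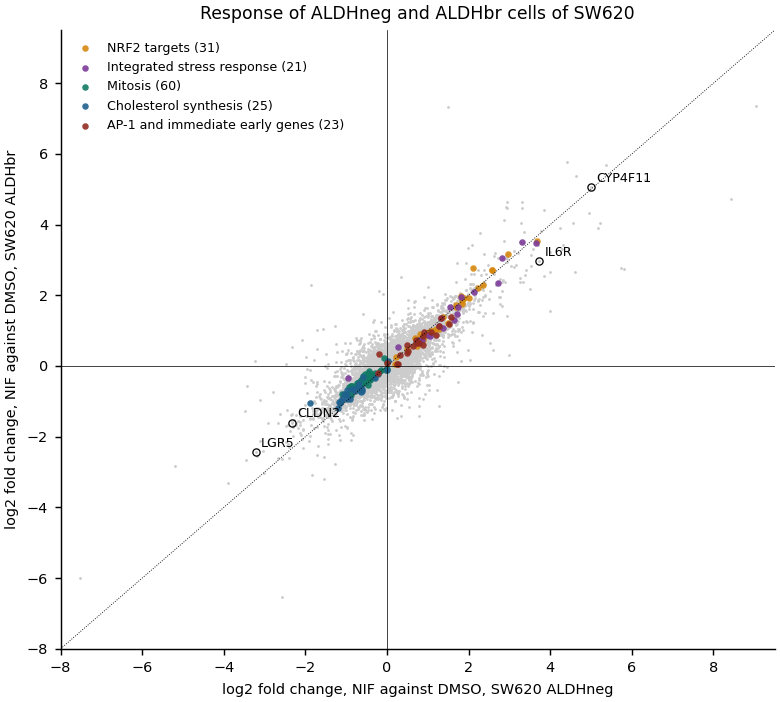
Log2 fold change of NIF against DMSO in ALDHneg cells (x axis) and in ALDHbr cells (y axis) of SW620, with 1 grey point for each of 13953 genes, members of 5 gene lists in colour and equal values on the dotted line. The coloured lists lie along the line, and CLDN2 lies above it, at -2.34 in ALDHneg and -1.60 in ALDHbr cells.

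The difference between the 2 responses passed its test in 1 of 13953 genes (0.00717%), at an unadjusted p under 0.05 in 771 genes, and with DESeq2 in 28 genes. That gene was CLDN2, which stood at 123 ± 3.88 CPM under DMSO and 24.3 ± 0.331 CPM under NIF in ALDHneg cells, and at 163 ± 6.66 CPM and 53.6 ± 0.673 CPM in ALDHbr cells (SD, n = 3 each). The log2 difference was -0.73 (standard error 0.07, edgeR adjusted p = 0.000936). Without the ALDHbr DMSO replicate 2 the count was 27 genes, and 2644 genes had an unadjusted p under 0.05, so the number of genes that differ depends on that library. Among the lists, the mitotic genes had 56 of 60 members with a lower log2 fold change in ALDHneg than in ALDHbr cells, with a median difference of -0.17, against 50.5% of all genes and a median of -0.00, and 23 of them (38.3%) had an unadjusted p under 0.05 for the difference, against 5.53% of all genes. Their median log2 fold change was -0.58 in ALDHneg and -0.41 in ALDHbr cells. Without the ALDHbr DMSO replicate 2, 50 of 60 were lower with a median difference of -0.18, and 31 (51.7%) had an unadjusted p under 0.05 against 18.7% of all genes. The DNA replication genes did not share this, with 12 of 53 fold changes lower in ALDHneg cells and medians of -0.27 and -0.35. No member of the mitosis or DNA replication lists passed the test of the difference over all genes, with or without that library. Some other lists leaned otherwise, with 0 of 78 cytosolic ribosomal protein genes and 4 of 37 respiratory complex I genes lower in ALDHneg cells. With all 12 libraries 0 of them had an unadjusted p under 0.05, and without the ALDHbr DMSO replicate 2, 60 and 19 did.

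In ALDHneg cells of SUM159 fewer genes passed. Of 14953 genes tested there 164 (1.10%) rose and 329 (2.20%) fell under NIF. The replicate numbers pair the SUM159 libraries, and with the number as a block 912 rose and 1058 fell. Of the genes called in SW620 ALDHneg cells 5721 were tested in SUM159, and 3268 of them had the same sign there. Called in both lines, by the SUM159 fit without the block, were 71 genes that rose, 93 that fell and 98 that went opposite ways. The overlap with the larger set of SUM159 calls under the block is not given here. The responses of the lines were compared directly over all 24 libraries, where the difference passed the test in 3641 of 16271 genes, with 1939 (11.9%) higher and 1702 (10.5%) lower in SW620 than in SUM159, and in 4243 genes with the replicate block. With library-size scaling the split was 1615 higher and 2335 lower.

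The NRF2 and stress response genes differed between the lines. Of the 31 NRF2 targets 25 had a higher log2 fold change in SW620 by that test and 0 a lower one, and the 29 tested in SUM159 had a median of 0.32 there, with 10 that rose and, with the replicate block, 21 that rose and 1 that fell. Of the 21 integrated stress response members 18 were higher in SW620 and 1 lower, with a SUM159 median of 0.11 and 2 that rose there, or 5 that rose and 2 that fell with the block. The mitotic genes had 40 of 60 members lower in SW620 and 0 higher, with a SUM159 median of -0.17 and 10 that fell there, or 32 with the block. Of the cholesterol genes 18 were lower in SW620 and 1 higher, with a SUM159 median of -0.18 over 24 genes and 6 that fell, or 13 with the block. HMOX1 rose in both lines, by 1.83 and 1.42 on the log2 scale (difference 0.42, standard error 0.26, edgeR adjusted p = 0.282), and the difference passed with the replicate block (edgeR adjusted p = 0.0133). CYP1A1 fell in both, with log2 fold changes of -2.57 and -3.35 (difference 0.79, standard error 0.50, edgeR adjusted p = 0.294), and so did CYP1B1, with -2.31 and -2.37 (difference 0.09, standard error 0.41, edgeR adjusted p = 0.949). In SUM159 CYP1B1 was near the floor, at 0.533 ± 0.223 CPM under DMSO and 0.103 ± 0.0942 CPM under NIF (SD, n = 3 each). The 2 CYP1 differences missed the threshold with the block as well, which does not show that these responses are alike.

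**Figure D4:**
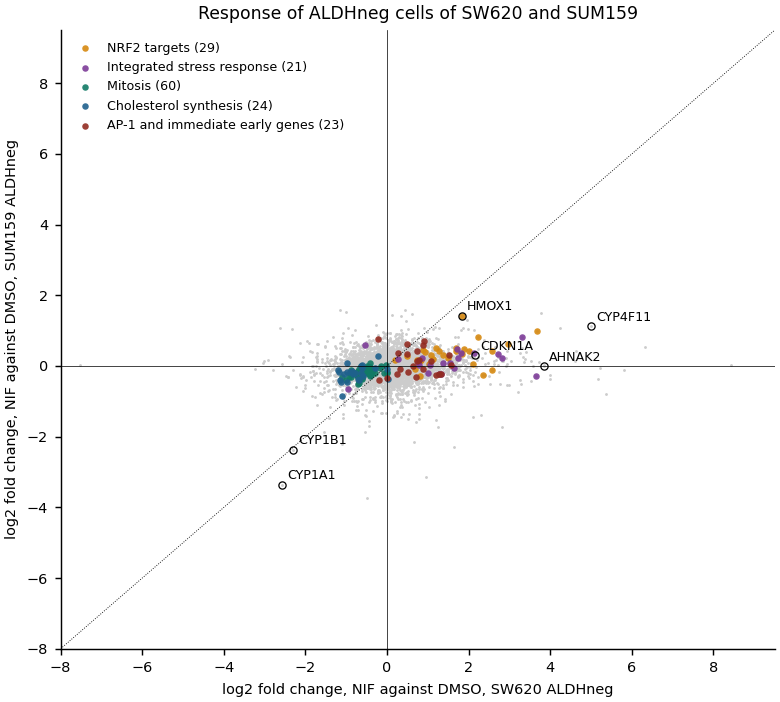
Log2 fold change of NIF against DMSO in ALDHneg cells of SW620 (x axis) and of SUM159 (y axis), with 1 grey point for each of 12780 genes tested in both lines, members of 5 gene lists in colour and equal values on the dotted line. The cloud is wide along the SW620 axis and narrow along the SUM159 axis, and CYP1A1 and CYP1B1 fell in both. The mean level of CYP1B1 in SUM159 was 0.533 CPM under DMSO and 0.103 CPM under NIF.

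AHNAK2 was among the genes with the largest difference, with log2 fold changes of 3.84 in SW620 and -0.01 in SUM159 (difference 3.86, standard error 0.27, edgeR adjusted p = 1.55e-10). CA9 fell in SW620 and rose in SUM159, with log2 fold changes of -1.16 and 1.59 (difference -2.75, standard error 0.20, edgeR adjusted p = 5.41e-10). BAIAP3, a regulator of vesicle release, rose in SW620 and fell in SUM159, with 0.95 and -3.14 (difference 4.11, standard error 0.26, edgeR adjusted p = 4.34e-11). In SW620 it stood at 12.9, 12.6 and 12.6 CPM under NIF and 6.47, 6.44 and 6.77 CPM under DMSO, with no overlap. PHLDB2, a cortical anchor of microtubules, stood at 0.643, 0.559 and 0.431 CPM under NIF and 4.47, 4.96 and 3.91 CPM under DMSO in SW620 ALDHneg cells, with a log2 fold change of -3.03 there and 0.13 in SUM159 (difference -3.15, standard error 0.17, edgeR adjusted p = 2.22e-12). CDKN1A rose by 2.15 in SW620, while its SUM159 value of 0.30 passed with the replicate block (edgeR adjusted p = 0.00452) and not without it (difference 1.85, standard error 0.12, edgeR adjusted p = 8.82e-11).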

How the data were processed

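Total RNA of sorted SW620 and SUM159 cells was sequenced after a stranded total RNA library preparation. The deposited values are whole-number counts of reads for each gene, not normalized by the authors, with Entrez Gene identifiers. Per the labels, reads were checked with FastQC and aligned with STAR to GRCh38, and the counting tool, annotation and strand setting are not given in the sources used here. No column of values was left unused (0 columns).

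Counts of the 12 SW620 libraries were filtered with filterByExpr, scaled by TMM and tested with edgeR 4.0.16 in R 4.3.3 by the quasi-likelihood F test, with the 4 groups sharing an estimate of the spread. The contrast was NIF minus DMSO in ALDHneg cells, Benjamini-Hochberg adjusted over all genes tested, and called at 0.05. Fold changes of genes with few counts depend on the prior count, so counts are given for them. Differences between ALDHneg and ALDHbr cells (12 libraries) and between the lines (24 libraries) were tested as interactions. The code was tested on simulated data.

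Genes named at the ends were the 12 highest and 12 lowest among called genes that averaged 1 or more in log2 CPM and whose NIF and DMSO libraries did not overlap, leaving out symbols that begin with LOC. From each list up to 3 members in each direction were named, with the genes that the study follows, the 8 most abundant genes past a doubling or halving and the 5 largest differences in each direction. Other list members named were chosen after their values were seen. The lists and members were chosen with earlier results of these data known. A few genes chosen in this way are left out of the text and figures.

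Replicate numbers in the labels did not pair the SW620 libraries, since 1 of 18 same-number correlations of deviations from the group means was over 0.1. In SUM159 ALDHneg cells the 3 correlations were 0.305 to 0.425, and the numbers were taken as pairs there. Alternatives were RLE size factors, library-size scaling, other count filters, a replicate block, DESeq2 1.42.0, fits on fewer or more libraries, a minimum fold change and leaving out each library. Promoters were those of RefSeq (GRCh38.p14) and were found by Entrez Gene identifier for 10900 of the 13953 genes tested.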

Additional observations from a re-analysis of the deposited data

Results flagged for a closer look

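The values below are differences between 2 responses that passed an edgeR test of the difference itself. Between the sorted populations of SW620, CLDN2 fell further in ALDHneg than in ALDHbr cells, by a log2 difference of -0.73. Between ALDHneg cells of the lines, 3641 genes had a response that differed.

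The largest differences towards SW620 were those of LINC00707 (5.93), ZNF469 (5.80), BAIAP3 (4.11), APCDD1L (3.97) and AHNAK2 (3.86), on the log2 scale. In SW620 DMSO libraries LINC00707 had 0 to 1 counts, ZNF469 3 to 5 and APCDD1L 0 to 5, so that the size of their fitted differences depends on the prior count. The largest towards SUM159 were those of TSPAN8 (-3.25), PHLDB2 (-3.15), PLAT (-3.14), CA9 (-2.75) and SLC44A4 (-2.62). TSPAN8 and SLC44A4 were too low in SUM159 to be tested there alone, and PLAT had few counts in SW620. For TSPAN8 and SLC44A4 the difference cannot show how a response in SUM159 compares, because none could be measured there. In SW620 ALDHneg cells the change of SLC44A4 itself did not pass the test (edgeR adjusted p = 0.0612), although it passed under 4 alternatives.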

How the results depend on the processing

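The number of genes changed by NIF in SW620 ALDHneg cells, 6286, was within 1.5 times of that value under every alternative but the minimum log2 fold change of 1, which left 941. Leaving out 1 library at a time gave 5352 to 7134 genes. The 6 ALDHneg libraries fitted alone gave 8245. The single gene whose response differed between ALDHneg and ALDHbr cells became 4 with library-size scaling, 4 without a filter on low counts, 4 with all 24 libraries, 28 with DESeq2 and 0 with the minimum fold change, and CLDN2 was among the calls in each of these but the last. Leaving out 1 library gave 1 to 27, with 27 without the ALDHbr DMSO replicate 2. The count of differences between the lines, 3641, fell to 763 with the minimum fold change and ranged from 3133 to 3642 without 1 library. The causes were not tested.

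With the replicate number as a block 5978 genes changed in SW620 ALDHneg cells (5941 shared with the 6286), 2 differed between ALDHneg and ALDHbr cells and 4243 between the lines. Same-numbered NIF and DMSO libraries of SW620 ALDHneg cells had correlations of -0.0614 to -0.0249, and 0 of 6 correlated best with its own number.

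Of 183 genes chosen by the naming rule, 164 kept direction and side of the threshold under all 20 alternatives, 0 reversed, and 17 lost the call under at least 1. The rule mostly took called genes with large changes (181 of the 183 were called), which favours such stability. These counts do not describe the called genes in general. RAD51D lost it under 13, PSMA2 and PSMD2 under 12, RPL37A under 9 and PSMD14 under 8. Genes with few counts, such as FGF21 and FABP1, are limited by depth.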

Other observations

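The genes of translation, protein turnover and respiration had call counts that depended on the libraries fitted. Of 78 cytosolic ribosomal protein genes 6 rose and 1 fell in SW620 ALDHneg cells (median log2 fold change 0.08), with 25 higher without the ALDHbr DMSO replicate 2, 46 higher with the 6 ALDHneg libraries fitted alone, and 3 to 14 higher without any 1 of the other libraries. Each of the 78 had a higher log2 fold change in ALDHneg than in ALDHbr cells (median difference 0.14), and 0 passed the edgeR test of the difference or had an unadjusted p under 0.05. Without the ALDHbr DMSO replicate 2 the median difference was 0.24, 0 passed the test with adjustment, and 60 (76.9%) had an unadjusted p under 0.05 against 18.7% of all genes. Of 31 proteasome subunits 4 rose and 3 fell (median 0.05), with 8 and 6 without the ALDHbr DMSO replicate 2, 13 and 7 with the 6 ALDHneg libraries alone, and 2 to 5 and 1 to 3 without any 1 of the other libraries. Of 37 subunits of respiratory complex I 0 rose and 5 fell (median -0.08), with 2 and 8 without the ALDHbr DMSO replicate 2, 5 and 15 with the 6 ALDHneg libraries alone, and 0 to 2 and 2 to 6 without any 1 of the other libraries. Ribosomal protein genes have many processed pseudogenes, and how reads shared with them were counted is not given in the sources used here.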
